A study of Mus musculus with 127 samples.

Results

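The 31 genes described here build cholesterol and fatty acids or control that synthesis, and they were taken by name from the 23366 gene symbols of the deposited table. They comprise 16 enzymes of sterol synthesis, 5 genes of sterol sensing and of the SREBP transcription factors (Insig1, Insig2, Scap, Srebf1 and Srebf2), the sterol carrier Stard4 and 9 genes of fatty acid synthesis, elongation and desaturation. All 31 passed the filter on low counts in every fit. Bulk RNA was sequenced with SMART-seq2, which copies whole polyadenylated transcripts into cDNA and works on few cells. The cells were haematopoietic stem and progenitor cells that had been sorted from mouse bone marrow by surface markers: long-term stem cells (LT), short-term stem cells (ST) and multipotent progenitors (MPP). The donors were 4 young and 2 old animals. In young mice 1 to 3 and old mouse 2, the sorted cells received both LPS (100 ng/ml) and Pam3csk4 (1 ug/ml) and were collected at 0, 0.5, 1, 2, 4, 8 and 12 h. LPS is a ligand of the receptor TLR4, and Pam3csk4 is a synthetic lipopeptide ligand of TLR2 with TLR1. For young mouse 4 and old mouse 4 no ligand was added to the medium, and cells were collected at 0, 2, 4 and 8 h. The labels name no strain, genotype, sex or age in months. Since no mouse gave cells to both cultures, the ligands cannot be told apart from the mice in any comparison of the cultures. Libraries that share an age and a mouse number were taken as coming from a single animal, so that each group has 1 library per mouse.

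Cholesterol is made from acetyl-CoA through the mevalonate pathway, which yields isoprenoid units that are joined to squalene and closed into sterol rings. When sterols in the endoplasmic reticulum membrane are scarce, Scap escorts the SREBP precursors to the Golgi, where they are cleaved into active transcription factors. When sterols are plentiful, Insig proteins hold Scap back. Srebf2 encodes the factor that acts mainly on sterol genes, and the main products of Srebf1 act mainly on fatty acid genes. Insig1 is itself a target of these factors.

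The promoters are shown because SREBPs are known to act through sterol regulatory elements near the start of these genes, together with NF-Y at CCAAT boxes and Sp1 at GC boxes. Of the 31 genes, 24 had an entry in the RefSeq promoter table (assembly GRCm38.p6), of which the 250 bases before the start were searched on both strands. The sterol regulatory element core TCACNCCAC was present in 1 of the 24, Hmgcs1, against 1.15% of 10095 genes that were tested for expression and had a promoter. CCAAT was present in 18 of 24 (75%) against 40.6% of the same genes, and GGGCGG, the core of a GC box, in 19 of 24 (79.2%) against 62%. A match describes the letters in this window and was not tested as a binding site. The Hmgcs1 window on the plus strand, chr13:119690101-119690350, is given first, with the sterol regulatory element core (bases -137 to -129 from the start) and 3 CCAAT boxes, which read ATTGG on this strand, in capitals.
Hmgcs1: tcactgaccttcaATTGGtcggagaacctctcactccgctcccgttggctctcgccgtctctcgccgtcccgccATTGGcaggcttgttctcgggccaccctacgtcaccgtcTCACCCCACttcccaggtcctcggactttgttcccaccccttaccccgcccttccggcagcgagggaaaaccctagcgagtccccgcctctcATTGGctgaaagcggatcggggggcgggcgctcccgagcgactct
Idi1, at chr13:8885356-8885605 on the plus strand, was chosen for printing after its expression values were seen, as an enzyme gene without the sterol regulatory element core in the window. Its 2 CCAAT boxes are in capitals.
Idi1: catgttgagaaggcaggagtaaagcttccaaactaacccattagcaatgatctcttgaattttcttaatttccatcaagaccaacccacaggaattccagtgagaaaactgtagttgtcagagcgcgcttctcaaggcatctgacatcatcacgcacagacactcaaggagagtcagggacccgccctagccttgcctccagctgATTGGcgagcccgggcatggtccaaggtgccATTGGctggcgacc

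With repeat libraries summed, 108 libraries remained, 75 from young and 33 from old mice. Their totals ran from 990801 to 11764600 counts, and they detected 6241 to 14096 genes each. Fewer than 8000 genes were detected in 9 libraries, all of them stimulated: LT of young mouse 1 at 2, 4, 8 and 12 h, LT of young mouse 2 at 8 and 12 h, and ST of young mouse 1 at 4, 8 and 12 h. In LT of young mouse 1, counts of 0 were found for 2 of the 16 sterol enzymes at 0 h, 9 at 2 h, 6 at 4 h and 7 at 8 h. Neutrophil granule transcripts (S100a8, S100a9, Ngp, Camp, Ltf and Lcn2) summed at 0 h to between 98.8 and 54992 CPM (counts per 1000000) in young mice 1 to 3. At 4 h the corresponding range was 157 to 67981 CPM, with young mouse 3 lowest at both times. Markers of multipotent progenitors (4 genes, all with counts) summed in MPP to 1162 to 2759 CPM at 0 h and 462 to 1075 CPM at 4 h in young mice 1 to 3, and without ligand to 370.5 to 628 CPM at 0 h and 103 to 111 CPM at 4 h. The part of these differences in the results was not tested. Flt3, a marker of multipotent progenitors, averaged 56.0 ± 54.4 CPM in LT, 219 ± 192 in ST and 466 ± 388 in MPP of the 4 young mice at 0 h (mean ± SD). Among other marker genes in these libraries, Cd34 and Cd27 also averaged lowest in LT, and Slamf1, Mecom and Ctnnal1 highest in LT. Others did not separate LT from ST in this way. Hlf averaged 86.1, 171 and 84.7 CPM and Procr 43.4, 70.6 and 15.6 CPM in LT, ST and MPP. Fgd5 averaged 23.2 CPM in LT and 25.4 in ST, and Cd48 57.7 and 52.0. Nfkbia, Nfkbiz, Tnfaip3 and Nfkb2, NF-kB target genes, rose in all 3 cell types of young mice 1 to 3 between 0 h and 2, 4, 8 and 12 h (edgeR, 4 of 4 genes past an adjusted p of 0.05 at each time). Without ligand, 0 of the 4 passed in any cell type. Tested directly with edgeR, the change with ligand was the higher one for Nfkbia in ST and MPP at 2, 4 and 8 h and for Nfkbiz in LT and ST at 8 h, and the other differences did not pass. In bulk libraries, a larger share of cells that express a gene and more of its RNA per cell cannot be told apart.

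The sterol synthesis enzymes were together higher at 4 h of stimulation than at 0 h in each mouse and cell type. Summed over the 16 enzymes, MPP of young mice 1, 2 and 3 held 511, 560.4 and 678 CPM at 0 h and 1153, 1929 and 3174 CPM at 4 h. In ST the sums were 589.8, 571 and 646 CPM at 0 h and 1615, 2646 and 2435 CPM at 4 h. In LT they were 555, 632 and 649 CPM at 0 h and 1537, 1425 and 1405 CPM at 4 h. In every cell type the lowest 4 h value lay above the highest 0 h value, and among the young mice the gap was widest in MPP of young mouse 3. These sums are shares of the library and weigh the most abundant enzymes most. The sums did not increase steadily up to 4 h: those at 2 h were 444, 378 and 502 CPM in MPP, below the 0 h value of the same mouse in each of the 3 mice. At 8 h they were 1242, 1447 and 1042 CPM in MPP, 1545, 1298 and 909 CPM in ST and 1503, 1121 and 598 CPM in LT, and at 12 h 1233, 1484 and 1686 CPM, 968, 1607 and 1126 CPM and 1020, 807 and 868 CPM. In LT of young mouse 3 the 8 h sum was back below its 0 h value, whereas in MPP all 3 mice were still above all 0 h values at 12 h. Old mouse 2, the only stimulated old mouse, entered no test of a stimulated time against 0 h, but it entered the comparisons of the changes with and without ligand. Its sums at 0 and 4 h were 476 and 2267 CPM in LT, 464 and 3503 CPM in ST, and 445 and 1772 CPM in MPP. Without ligand, the sums at 4 h were 442 and 567 CPM in LT of young mouse 4 and old mouse 4, 416 and 245 CPM in ST and 354 and 365 CPM in MPP. Each of these was below all stimulated 4 h values of its cell type. The 0 h sums of young mouse 4 and old mouse 4 are not given here, and single enzymes differed from young mice 1 to 3 at 0 h in both directions. In MPP, Dhcr7 stood at 7.46 to 11.7 CPM against 25.6 to 47.6, and Ebp at 67.2 to 79.7 CPM against 47.8 to 52.3. Idi1 stood lower in LT, at 4.74 to 44.9 CPM against 65.9 to 90.4, and in ST, at 9.70 to 34.4 CPM against 53.1 to 82.9. In LT, Sqle was lower too, at 16.1 to 33.7 CPM against 37.8 to 83.4, but Mvd was higher, at 33.0 to 39.5 CPM against 18.6 to 22.9. The part of such 0 h differences in the 4 h gap was not tested.

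Gene by gene, few of these differences passed correction over all genes. Each time was compared with 0 h in young mice 1 to 3 (n = 3 mice per time, 63 libraries and 13678 genes in 1 edgeR quasi-likelihood fit, 2-sided, adjusted by Benjamini-Hochberg within each comparison). Fdps rose in ST at 4, 8 and 12 h and Idi1 rose in MPP at 4 h, and these were the only calls among the 31 genes. Of all tested genes, 0.292%, 0.3% and 0.263% were called higher in LT, ST and MPP at 2 h, 0.241%, 0.256% and 0.336% at 4 h, 0.234%, 0.256% and 0.292% at 8 h and 0.227%, 0.271% and 0.3% at 12 h. No member fell, when 0.0146%, 0.00731% and 0% of all genes were called lower in LT, ST and MPP at 2 h, 0.0292%, 0.0146% and 0.00731% at 4 h, 0.0512%, 0.00731% and 0.0219% at 8 h and 0.0146%, 0.175% and 0.0146% at 12 h. At an unadjusted p under 0.05 and at 2 h, 0, 1 and 0 members were higher and 2, 0 and 0 lower, against 3.41%, 3.49% and 2.57% of all genes higher and 6.13%, 3.31% and 0.621% lower (each in the order LT, ST, MPP). At 4 h, 3, 5 and 5 members were higher and 0, 0 and 0 lower, against 3.64%, 3.43% and 2.71% of all genes higher and 6.94%, 3.95% and 1.74% lower. By the same rule at 8 h, 1, 3 and 3 members were higher and 1, 0 and 0 lower, against 3.05%, 2.96% and 2.54% of all genes higher and 8.24%, 4.95% and 1.61% lower. At 12 h, 2, 3 and 4 members were higher and 1, 1 and 0 lower, against 3.26%, 2.95% and 2.47% of all genes higher and 5.93%, 11.2% and 1.91% lower. The members higher in ST and MPP at 4, 8 and 12 h were all among Hmgcs1, Idi1, Fdps, Cyp51 and Insig1. DESeq2 called 2 members higher at 4 h in LT (Hmgcs1 and Insig1) and the same 4 in ST and MPP (Hmgcs1, Idi1, Fdps and Insig1), when it called 1.88%, 1.53% and 0.953% of the genes with an adjusted p higher in LT, ST and MPP. At 8 and 12 h it called Fdps and Insig1 higher in ST, against 1.29% and 1.8% of genes, and Idi1 and Fdps in MPP, against 0.865% and 0.872%.

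The counts of members whose 3 stimulated values all lay above all 3 values at 0 h give another view of the same data. In MPP they numbered 0 at 2 h, 10 at 4 h, 9 at 8 h and 12 at 12 h, against 7.53%, 7.46%, 6.32% and 6.38% of all tested genes. In ST they numbered 2, 9, 5 and 5 at the same times, against 5.45%, 3.99%, 3.66% and 2.94%. In LT they numbered 0, 4, 2 and 2, against 3.48%, 3.1%, 2.84% and 2.91%. The 4 in LT at 4 h were Hmgcs1, Fdps, Cyp51 and Insig1. The 12 in MPP at 12 h were 10 sterol enzymes (Acat2, Hmgcs1, Mvd, Idi1, Fdps, Fdft1, Sqle, Cyp51, Nsdhl and Hsd17b7), Insig1 and Stard4. No fatty acid gene was among the members counted in MPP or LT, and Fads2 was the only one in ST, at 2, 4 and 8 h. Members with all 3 values below all 0 h values numbered 3, 4 and 5 in LT, ST and MPP at 2 h, 1, 1 and 2 at 4 h, 2, 2 and 3 at 8 h and 2, 3 and 2 at 12 h. The shares of all genes were 10.2%, 12.1% and 24.9% at 2 h, 12.2%, 11.1% and 21% at 4 h, 10.6%, 11.1% and 21.2% at 8 h and 9.28%, 14% and 20.8% at 12 h. The 5 in MPP at 2 h were Sqle, Lss, Nsdhl, Ebp and Dhcr7, a smaller share of the 31 than of all genes.

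Hmgcs1, the cytosolic synthase that makes HMG-CoA at the entry of the pathway, was higher at 4 h than at 0 h in each stimulated mouse and cell type. In LT of young mice 1, 2 and 3 it stood at 59.2, 31.3 and 46.2 CPM at 0 h and 658, 299 and 303 CPM at 4 h. ST held 116, 33.7 and 60.9 CPM at 0 h and 403, 631 and 474 CPM at 4 h. In MPP the values were 57.5, 51.0 and 79.9 CPM and 309, 452 and 746 CPM. The 4 h and 0 h values did not overlap in any cell type, and young mouse 1 was highest of the 3 in LT and lowest in ST and MPP at 4 h. The fitted log2 differences were 3.32 ± 0.99 (SE) in LT, 2.97 ± 0.97 in ST and 3.14 ± 0.98 in MPP. The edgeR adjusted p was 0.18, 0.39 and 0.32 in LT, ST and MPP, so that none passed, whereas the DESeq2 adjusted p was 0.0039, 0.028 and 0.029. Without young mouse 1, Hmgcs1 passed in all 3 cell types with edgeR (adjusted p = 0.014, 0.0022 and 0.0052). At 8 h Hmgcs1 was at 275, 89.5 and 93.9 CPM in LT, 241, 44.7 and 141 CPM in ST and 229, 201 and 147 CPM in MPP. By 12 h it was at 265, 137 and 189.9 CPM in LT, 128, 217 and 341 CPM in ST and 183, 282 and 301 CPM in MPP, again above all 0 h values. Old mouse 2 had 55.2, 66.4 and 57.2 CPM in LT, ST and MPP at 0 h and 478, 814 and 470.1 CPM at 4 h, within or above the range of the young mice at 4 h. In LT and ST of this mouse Hmgcs1 was already at 348 and 389 CPM at 2 h, above the 2 h values of the young mice, which reached at most 119 CPM in LT and 214 CPM in ST.

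Idi1 encodes the isomerase that interconverts the 2 isoprenoid building blocks of the pathway. In MPP it stood at 33.3, 55.2 and 69.2 CPM in young mice 1, 2 and 3 at 0 h, 32.8, 27.9 and 51.7 CPM at 2 h and 194, 229 and 405 CPM at 4 h. All 3 values at 4 h were above all values at 0 and 2 h, and the log2 rise from 0 h was 2.53 ± 0.56 (SE; edgeR adjusted p = 0.018). Leaving out young mouse 2 or young mouse 3 ended this call (adjusted p = 1.0 and 0.44), with log2 differences of 2.69 and 2.49. At 8 and 12 h Idi1 was at 262, 154 and 122 CPM and 118, 176 and 211 CPM in MPP, with adjusted p of 0.19 and 0.3. In ST it stood at 82.9, 53.1 and 82.6 CPM at 0 h, 148, 358 and 343 CPM at 4 h and 346, 112 and 141 CPM at 8 h. The ST values at 4 h lay above those at 0 h, with young mouse 1 lowest at 4 h and highest at 8 h, and the difference at 4 h was 2.09 ± 0.55 with an edgeR adjusted p of 0.11. In LT, Idi1 stood at 83.9, 90.4 and 65.9 CPM at 0 h and 49.3, 199 and 107 CPM at 4 h. These ranges overlapped, young mouse 1 being lower at 4 h than at 0 h after a value of 329 CPM at 2 h. The LT difference at 4 h was 0.73 ± 0.53 (adjusted p = 0.72).

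Fdps, farnesyl diphosphate synthase, joins isoprenoid units into the precursor of squalene. In ST it stood at 76.9, 79.6 and 55.5 CPM in young mice 1, 2 and 3 at 0 h and 104, 45.3 and 63.6 CPM at 2 h. It then stood at 271, 359 and 338 CPM at 4 h, 516, 495 and 159 CPM at 8 h and 243, 402 and 181 CPM at 12 h. All 9 values from 4 to 12 h were above all values at 0 and 2 h. Its log2 rise from 0 h was 2.31 ± 0.50 at 4 h, 2.55 ± 0.50 at 8 h and 2.05 ± 0.49 at 12 h (edgeR adjusted p = 0.013, 0.0038 and 0.036). Without young mouse 2 the adjusted p was 1.0, 1.0 and 0.65, with log2 differences of 2.33, 2.45 and 1.76. Leaving out young mouse 1 ended the 3 calls as well (adjusted p = 0.076, 0.099 and 0.074), and leaving out young mouse 3 ended those at 4 and 12 h (0.12 and 0.1). In MPP the values were 100.3, 87.8 and 83.1 CPM at 0 h, 168, 331 and 472 CPM at 4 h, 295, 318 and 209 CPM at 8 h and 247, 295 and 292 CPM at 12 h, all later values lying above those at 0 h. The MPP differences were 1.98 ± 0.49, 1.76 ± 0.49 and 1.76 ± 0.49 (adjusted p = 0.058, 0.17 and 0.18). With the mouse as a replicate block, the 3 MPP differences passed (adjusted p = 0.0058, 0.033 and 0.021). In LT, Fdps stood at 155, 118 and 64.8 CPM at 0 h and 266, 216 and 189 CPM at 4 h, without overlap. The LT difference of 1.14 ± 0.48 had an adjusted p of 0.45. Old mouse 2 had 85.0, 71.1 and 62.6 CPM in LT, ST and MPP at 0 h and 264, 589.9 and 229 CPM at 4 h.

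**Figure D1:**
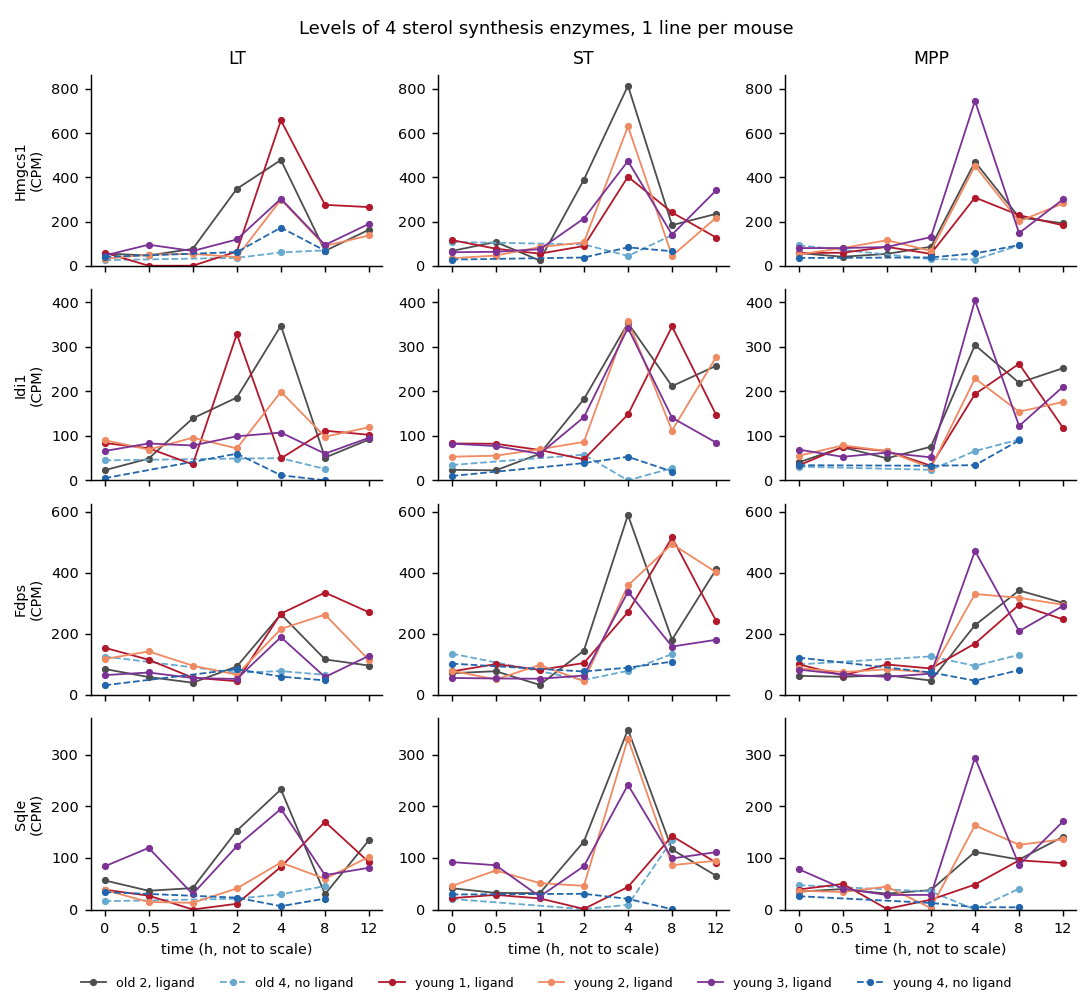
Levels in CPM of Hmgcs1, Idi1, Fdps and Sqle (rows) in LT, ST and MPP (columns) at each time in hours, with 1 line per mouse, solid with ligand and dashed without. Hmgcs1 in MPP stands at 309, 452 and 746 CPM at 4 h in stimulated young mice 1, 2 and 3, and at 55.8 and 27.9 CPM in young mouse 4 and old mouse 4 without ligand.

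Sqle, squalene epoxidase, makes the first oxygenated sterol precursor. At 4 h Sqle stood at 82.5, 90.9 and 195 CPM in LT of young mice 1, 2 and 3, against 38.4, 37.8 and 83.4 CPM at 0 h. ST held 43.6, 331 and 241 CPM against 22.0, 45.4 and 91.8 CPM, and MPP 48.3, 163 and 294 CPM against 38.7, 36.4 and 78.1 CPM. Each mouse was higher at 4 h than at 0 h, but the groups overlapped, since young mouse 3 started highest and young mouse 1 ended lowest. The fitted differences were 1.40 ± 1.06, 2.09 ± 1.09 and 1.85 ± 1.08 in LT, ST and MPP (edgeR adjusted p = 0.75, 0.69 and 1.0). At 2 h, Sqle in MPP was at 19.0, 2.76 and 28.3 CPM, below every 0 h value, and at 12 h it was at 89.7, 136 and 171 CPM, above every 0 h value.

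Cyp51, the sterol 14-demethylase, reached 198 ± 79.8 CPM (SD, n = 3) at 4 h in LT from 56.8 ± 32.8 at 0 h, 346 ± 91.1 from 55.4 ± 34.9 in ST and 276 ± 135 from 47.9 ± 21.3 in MPP. Its 4 h values did not overlap with those at 0 h in any cell type, and the unadjusted p was 0.052, 0.0077 and 0.0098 (edgeR adjusted p = 0.47, 0.56 and 0.74). Fdft1, squalene synthase, averaged 155 ± 73.9 CPM at 4 h in ST against 51.9 ± 5.62 at 0 h, and 150.2 ± 59.4 in MPP against 33.3 ± 2.16, without overlap in either. Mvd, which makes isopentenyl diphosphate, averaged 60.2 ± 28.9 CPM at 4 h in MPP against 16.4 ± 3.55. Acat2, which makes acetoacetyl-CoA, averaged 116 ± 44.5 CPM against 46.7 ± 13.9 in MPP and 107 ± 38.5 against 34.7 ± 18.6 in ST, but 56.0 ± 11.8 against 64.7 ± 22.6 in LT. At 4 h, 12 of 16 had a fitted difference above 0 in LT, 12 in ST and 13 in MPP, as did 37.4%, 39.3% and 41.4% of all genes tested. In MPP the differences below 0 were those of Ebp (-0.87 ± 1.15), Dhcr7 (-0.45 ± 1.73) and Tm7sf2 (-1.78 ± 2.38), which act on the sterol rings late in the pathway. The same 3 enzymes were below 0 in ST, together with Mvk, mevalonate kinase (-0.85 ± 2.28). In LT those below 0 were Acat2 (-0.04 ± 1.21), Pmvk (-0.42 ± 1.10), Nsdhl (-0.61 ± 1.76) and Dhcr7 (-1.14 ± 1.76). The enzymes Pmvk, Lss, Nsdhl and Hsd17b7 had differences between -0.61 and 2.07 at 4 h across the 3 cell types, with no unadjusted p under 0.05. Many of these enzymes had low counts and wide errors: Tm7sf2, for one, averaged 5.48 ± 3.38 CPM in MPP at 0 h.

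Among the genes of sterol sensing, Insig1, which retains the Scap and SREBP complex in the endoplasmic reticulum and so restrains SREBP activation, stood above its 0 h level within the first 0.5 h. At 0.5 h of stimulation it stood at 281, 228 and 296 CPM in LT of young mice 1, 2 and 3, against 27.5, 80.8 and 142 CPM at 0 h. In ST it stood at 245, 295 and 268 CPM at 0.5 h against 31.7, 118 and 135 CPM, and in MPP at 146, 179 and 201 CPM against 87.4, 95.7 and 100.0 CPM. All 9 values at 0.5 h were above all 0 h values of their cell type. The 0.5 h libraries were in the fit but that time was not compared, so these values carry no test. Cells without ligand were not collected at 0.5 h, so the ligands cannot be told apart from sorting or culture at that time. Hmgcs1 at 0.5 h was at 58.7, 79.7 and 80.0 CPM in MPP, overlapping with 0 h. In old mouse 2, Insig1 at 0 and 0.5 h stood at 91.8 and 183 CPM in LT, 138 and 129.7 CPM in ST, and 74.2 and 149.7 CPM in MPP, so that it was not higher in ST. Insig1 then stood at 124, 72.9 and 103 CPM at 2 h in MPP, overlapping with 0 h, and at 258, 419 and 457 CPM at 4 h, above it. At 4 h it was at 266, 330.1 and 224 CPM in LT and 98.1, 414 and 434 CPM in ST. Only ST of young mouse 1 lay within the 0 h range at 4 h, and the same mouse had 642 CPM at 8 h, the highest value of the gene in any library. The log2 differences at 4 h were 1.83 ± 0.54 in LT, 1.85 ± 0.54 in ST and 2.15 ± 0.54 in MPP, and those in ST at 8 and 12 h 2.17 ± 0.54 and 1.93 ± 0.54. None passed (edgeR adjusted p = 0.17, 0.2, 0.063, 0.072 and 0.11 in that order). With the mouse as a block, 4 of these 5 passed, at 0.035 in LT at 4 h, 0.014 in MPP at 4 h, and 0.0055 and 0.015 in ST at 8 and 12 h, and ST at 4 h reached 0.053.

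Srebf2, the transcription factor gene, overlapped between 0 and 4 h. In MPP it stood at 59.6, 55.6 and 117 CPM in young mice 1, 2 and 3 at 0 h and 86.4, 109 and 125 CPM at 4 h. In ST it stood at 32.3, 78.0 and 163 CPM and 187, 46.3 and 185 CPM, and in LT at 25.5, 67.2 and 92.4 CPM and 84.7, 55.7 and 197 CPM. The ranges overlapped in all 3 cell types, and ST and LT of young mouse 2 were lower at 4 h than at 0 h. The differences were 1.06 ± 0.86, 0.74 ± 0.85 and 0.62 ± 0.85 in LT, ST and MPP (edgeR adjusted p = 0.78, 1.0 and 1.0), with errors about as wide as the differences. In LT at 8 h, Srebf2 stood at 103, 105 and 185 CPM, above all 0 h values. Srebf1 averaged 95.8 ± 31.6 CPM at 0 h and 67.5 ± 58.5 at 4 h in LT, 127 ± 44.7 and 118 ± 7.17 in ST, and 104 ± 22.7 and 133 ± 41.2 in MPP (SD, n = 3), differences within the spread of the mice. At 12 h in ST it lay below all 0 h values (-2.60 ± 1.49 on the log2 scale, adjusted p = 0.43). Scap, the escort protein of the SREBPs, had differences of -1.22 ± 1.84, -0.55 ± 1.82 and -0.14 ± 1.82 at 4 h in LT, ST and MPP, and Insig2 of 0.34 ± 1.96, 1.45 ± 2.00 and 0.66 ± 1.97. Stard4, which carries cholesterol between membranes, averaged 35.6 ± 8.39 CPM at 4 h in MPP against 18.5 ± 4.85 at 0 h without overlap, and 83.8 ± 104 against 34.3 ± 8.37 in LT with wide overlap. Without ligand, in young mouse 4 and old mouse 4, its log2 change in MPP was 4.10 at 4 h and 2.66 at 8 h. The first had an edgeR unadjusted p under 0.05. With ligand, the change at 4 h was 1.09 in young mice 1 to 3. That value came from the separate fit of 63 libraries without old mouse 2, so it is not the ligand arm of the next difference. The difference with against without ligand at 4 h was -2.56 in MPP, 0.39 in LT and 1.18 in ST, and none passed.

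**Figure D2:**
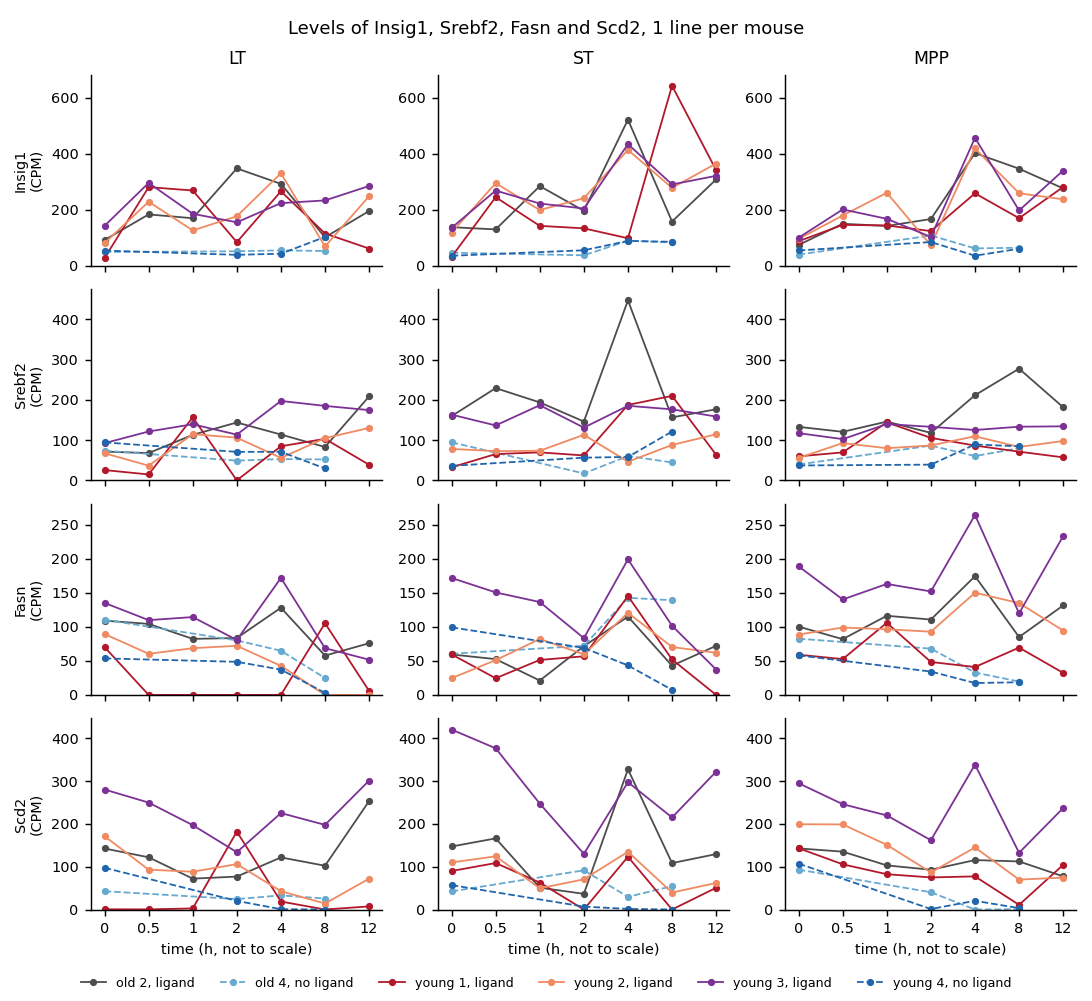
Levels in CPM of Insig1, Srebf2, Fasn and Scd2 (rows) in LT, ST and MPP (columns) at each time in hours, with 1 line per mouse, solid with ligand and dashed without. Insig1 in LT stands at 281, 228 and 296 CPM at 0.5 h in young mice 1, 2 and 3, and Fasn in ST stands at 145, 121 and 199 CPM at 4 h, the highest point of the Fasn line of each of these mice in ST.

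The fatty acid genes as a group were not higher at 4 h in every mouse. Summed over the 9 genes, MPP of young mice 1, 2 and 3 held 724, 845 and 1234 CPM at 0 h and 423, 853 and 1497 CPM at 4 h. In ST the sums were 961, 591 and 1199 CPM and 678, 907 and 1452 CPM, and in LT 615, 889 and 1069 CPM and 22.0, 643 and 1237 CPM. In each cell type at least 1 mouse was lower at 4 h, and LT of young mouse 1, a library with few detected genes, was lowest of all. Of the 9 genes, 3 had a fitted difference above 0 in LT at 4 h, 3 in ST and 5 in MPP, beside 37.4%, 39.3% and 41.4% of all genes tested, and none had an unadjusted p under 0.05 in any of these. Fasn, fatty acid synthase, stood at 70.4, 89.6 and 135 CPM at 0 h and 0, 42.7 and 172 CPM at 4 h in LT. ST held 59.6, 24.6 and 172 CPM and 145, 121 and 199 CPM, 4 h being the highest time of each mouse, and MPP 59.1, 88.8 and 189 CPM and 41.0, 150.3 and 265 CPM. The groups overlapped in all 3 cell types, with differences of -0.19 ± 1.59, 1.00 ± 1.61 and 0.56 ± 1.60 in LT, ST and MPP (edgeR adjusted p = 1.0, 1.0 and 1.0). In LT at 12 h, Fasn stood at 5.80, 0 and 51.8 CPM, below all 0 h values. Scd1, a desaturase that places the first double bond in fatty acids, was close to absent: at 0 h it stood at 0, 19.2 and 0 CPM in LT, 0, 12.8 and 5.60 in ST and 0.258, 4.81 and 0 in MPP. At 4 h it stood at 0, 49.1 and 2.31 CPM in LT, 0, 7.72 and 8.91 in ST and 24.2, 0 and 1.32 in MPP, so that single libraries set its mean. Scd2, its relative, stood at 143, 199 and 295 CPM in MPP at 0 h and 77.3, 145 and 338 CPM at 4 h, and young mouse 3 was highest at both times. Acly, which supplies cytosolic acetyl-CoA to both pathways, averaged 325 ± 33.9 CPM at 0 h and 326 ± 185 at 4 h in MPP, 329 ± 144 and 279 ± 161 in ST, and 312 ± 35.8 and 140.3 ± 148 in LT. Elovl5, an elongase of polyunsaturated fatty acids, was lower than all 0 h values at 4 h in LT (26.5 ± 24.4 CPM against 104 ± 37.4) and in MPP (74.9 ± 15.1 against 124 ± 38.0). The desaturase Fads2 was the only fatty acid gene whose values at 4 h all lay above those at 0 h, in ST, at 92.8 ± 57.5 CPM in ST at 4 h against 17.2 ± 5.14 at 0 h (2.55 ± 1.51 on the log2 scale, edgeR adjusted p = 0.79). Fads1 had differences of 1.01 ± 1.48, 1.39 ± 1.49 and 0.67 ± 1.47 in LT, ST and MPP. Acaca, which makes malonyl-CoA, and the elongase Elovl6 had differences below 0 in all 3 cell types at 4 h, between -2.67 and -0.50.

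Set beside all genes, the fitted log2 differences of the members had medians of 0.69, 1.00 and 0.66 at 4 h in LT, ST and MPP, when the medians of all tested genes were -0.31, -0.24 and -0.19. The 16 sterol enzymes had medians of 0.87, 1.60 and 1.67 and the 9 fatty acid genes of -0.42, -0.04 and 0.14. At 2 h the sterol enzymes had medians of -0.80, -0.58 and -0.37 in LT, ST and MPP, and at 12 h of 0.40, 0.36 and 1.39. By mouse, the median change of the sterol enzymes on the log2(CPM + 1) scale at 4 h ran from 0.51 to 1.93 in MPP, from 0.28 to 2.00 in ST and from 0 to 0.76 in LT. Young mouse 1 had the lowest of the 3 values in each cell type.

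**Figure D3:**
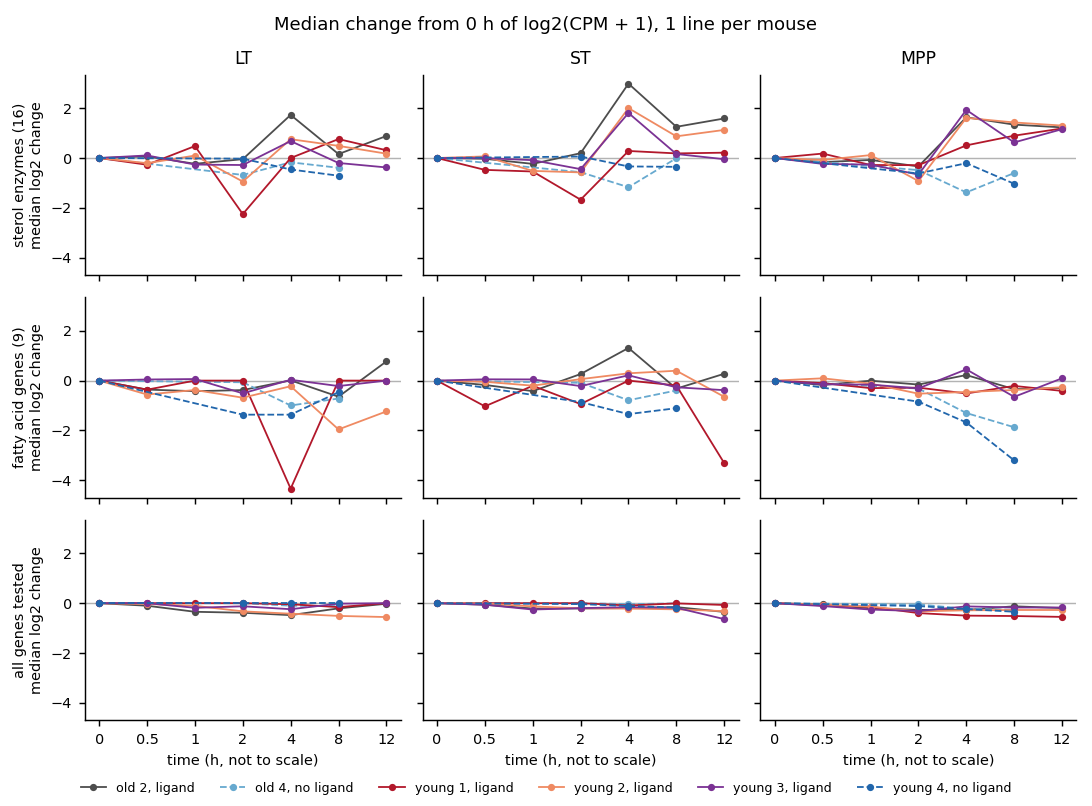
Median change from 0 h of log2(CPM + 1) over the 16 sterol enzymes, the 9 fatty acid genes and all tested genes (rows) in LT, ST and MPP (columns) by time in hours, with 1 line per mouse, solid with ligand and dashed without. At 4 h the sterol enzyme lines of stimulated young mice in MPP stand between 0.51 and 1.93, while the dashed lines stand between -1.38 and -0.21.

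In young mouse 4 and old mouse 4 no member passed between 0 h and 2, 4 or 8 h in any cell type (edgeR, 72 libraries and 14401 genes, n = 2 mice), when 0.0139%, 0.0208% and 0.0417% of all genes were called higher in LT, ST and MPP at 2 h, 0.0903%, 0.125% and 0.0972% at 4 h and 0.125%, 0.125% and 0.167% at 8 h. Called lower were 0%, 0% and 0% at 2 h, 0%, 0% and 0.0139% at 4 h and 0.0764%, 0.111% and 0.0694% at 8 h. DESeq2 called 1 member lower in some of these comparisons. It was Scd1 in LT at 4 h (0.578% of genes called lower by DESeq2), in ST at 8 h (3.31%) and in MPP at 8 h (2.82%), Acat2 in LT at 8 h (3.19%), and Nsdhl in ST at 2 h (0.801%) and 4 h (1.31%). At an unadjusted p under 0.05 and at 2 h, 0, 0 and 0 members were higher and 0, 2 and 1 lower, against 1.8%, 1.74% and 1.23% of all genes higher and 0.792%, 1.12% and 0.465% lower (LT, ST, MPP). At 4 h, 2, 1 and 1 members were higher and 1, 1 and 1 lower, against 2.28%, 2.53% and 2.03% of all genes higher and 1.49%, 2.65% and 2.01% lower. At 8 h, 1, 1 and 0 members were higher and 2, 3 and 4 lower, against 2.69%, 2.37% and 2.17% of all genes higher and 4.94%, 5.04% and 4.25% lower. The sterol enzymes had median differences at 4 h of -0.07, -0.59 and -0.31 in LT, ST and MPP, and the fatty acid genes of -1.14, -1.16 and -1.20, when the median of all genes was 0 in each. Summed over the 9 genes, fatty acid genes in MPP held 609.6 and 743 CPM at 0 h in young mouse 4 and old mouse 4, 408 and 482 CPM at 2 h, 237 and 280.3 CPM at 4 h and 301 and 261 CPM at 8 h. Scd2 in the same cells stood at 107 and 93.1 CPM at 0 h, 20.4 and 0 CPM at 4 h and 3.19 and 0.531 CPM at 8 h (-5.48 ± 2.33 on the log2 scale, edgeR adjusted p = 0.69). By the unadjusted rule, the 1 member higher in ST at 4 h was a gene of sterol sensing and SREBP, not an enzyme. By the same rule, 1 sterol enzyme was higher at 8 h in LT and 1 in ST. At 4 h, LT was the only cell type with any, namely Hmgcs1 and Cyp51. Hmgcs1 stood at 40.0 and 25.4 CPM at 0 h and 172 and 60.4 CPM at 4 h (2.07 ± 0.78, unadjusted p = 0.0099, edgeR adjusted p = 1.0). Cyp51 stood at 6.32 and 26.7 CPM and 47.9 and 155 CPM (2.89 ± 1.16, unadjusted p = 0.016, edgeR adjusted p = 1.0). In MPP, Idi1 without ligand ran from 30.7 to 33.9 CPM at 0 h, 34.2 to 65.9 CPM at 4 h and 89.8 to 91.8 CPM at 8 h. The 8 h values lay above those at 0 h in both mice, although the edgeR unadjusted p was not under 0.05.

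The difference between the changes with and without ligand was tested in the same fit, young mice 1 to 3 and old mouse 2 against young mouse 4 and old mouse 4. No member passed at 2, 4 or 8 h in any cell type. Of all genes, 0%, 0.0139% and 0.00694% had a higher change with ligand in LT, ST and MPP at 2 h, 0%, 0.00694% and 0.0278% at 4 h and 0.0347%, 0.0833% and 0.0625% at 8 h, and 0%, 0% and 0%, 0%, 0% and 0% and 0%, 0.00694% and 0% a lower one at these times. At 4 h, 25 of 31 members in LT, 27 in ST and 25 in MPP had a more positive change with ligand, as did 46.0%, 50.0% and 52.4% of all genes, with medians of 1.15, 1.91 and 1.78 against -0.07, 0 and 0.07 over all genes. At an unadjusted p under 0.05 and at 2 h, 0, 2 and 0 members were higher and 0, 0 and 0 lower, against 1.07%, 1.51% and 0.736% of all genes higher and 2.04%, 1.55% and 0.354% lower (LT, ST, MPP). At 4 h, 2, 5 and 5 members were higher and 0, 0 and 0 lower, against 1.44%, 2.32% and 1.53% of all genes higher and 1.94%, 1.76% and 0.868% lower. At 8 h, 0, 2 and 4 members were higher and 0, 0 and 0 lower, against 3.02%, 3.92% and 3.01% of all genes higher and 2.05%, 2.18% and 0.972% lower. Those higher at 4 h were Hsd17b7 and Insig1 in LT, Acat2, Hmgcs1, Fdps, Nsdhl and Fads2 in ST, and Hmgcs1, Fdps, Sqle, Lss and Insig1 in MPP. Hmgcs1 differed by 3.52 ± 0.95 in MPP and 3.06 ± 0.94 in ST (edgeR adjusted p = 0.49 and 1.0), and Fdps by 2.45 ± 0.75 and 2.90 ± 0.75 (adjusted p = 1.0 and 0.52). With DESeq2 the change with ligand was the higher one at 4 h for Scd1 in LT (0.336% of genes called higher by DESeq2), Fdps and Nsdhl in ST (0.935%), and Hmgcs1 and Sqle in MPP (0.624%). At 8 h it was so for Scd1 in ST (1.86%) and MPP (1.29%). These Scd1 calls rest on values close to 0. Without ligand it stood at 7.45 to 8.08 CPM in ST and 8.21 to 19.5 CPM in MPP at 0 h, and at 0 CPM in both at 8 h. In stimulated young mice at 8 h it ran from 0 to 4.60 CPM in ST and 0 to 10.9 CPM in MPP. Both arms enter each difference between the changes. For the fatty acid genes at 4 h, the median differences were 1.64, 1.87 and 1.71 in LT, ST and MPP, and the medians without ligand -1.14, -1.16 and -1.20. With ligand, the medians of young mice 1 to 3 were -0.42, -0.04 and 0.14. These came from the separate fit of 63 libraries without old mouse 2, so they are not the ligand arm of the differences.

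**Figure D4:**
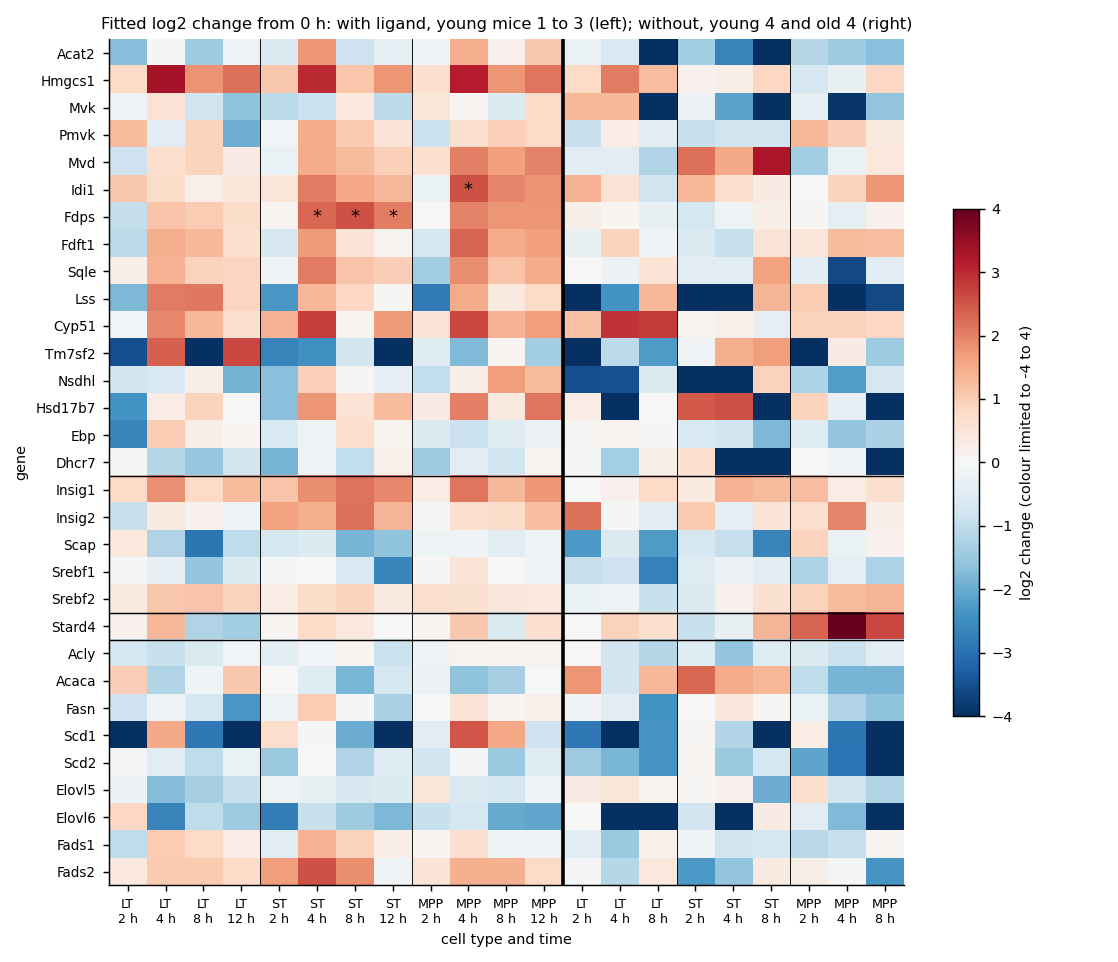
Fitted log2 change from 0 h of the 31 genes (rows, in the order sterol enzymes, sensing genes, Stard4 and fatty acid genes) by cell type and time (columns), to the left of the thick line with ligand in young mice 1 to 3 and to the right without ligand in young mouse 4 and old mouse 4, with colour limited to -4 to 4. Stars mark the 4 changes that passed, Idi1 in MPP at 4 h and Fdps in ST at 4, 8 and 12 h.

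No member differed in its change between LT and MPP or between ST and MPP, at 4 h or at 8 h (edgeR and DESeq2, with 0% of the 13678 genes called by edgeR in either direction). At an unadjusted p under 0.05, Idi1 was the only member, with a smaller change in LT than in MPP at 4 h (-1.80 ± 0.76, SE, adjusted p = 1.0) and at 8 h (-1.74 ± 0.76, adjusted p = 1.0). By that rule 1.75% of all genes had a smaller change in LT at 4 h and 2.53% at 8 h, and 0.892% and 0.695% a larger one. Between ST and MPP the shares were 0.651% larger and 0.782% smaller at 4 h, and 0.592% and 1.06% at 8 h. Across the members, the median difference of LT from MPP was -0.74 at 4 h, against -0.18 over all genes, and that of ST from MPP 0.03 against -0.08. The LT library of young mouse 1 at 4 h, with few detected genes, enters the first of these, and its part was not tested.

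At 0 h, among the 4 young mice, no member passed between LT and MPP, LT and ST or ST and MPP (edgeR and DESeq2, 12 libraries and 11568 genes, 0% of genes called higher), and Fads2 was the only one with an unadjusted p under 0.05, higher in LT than in ST. By that rule 0.951% of all genes were higher and 1.7% lower in LT than in MPP, 1.13% and 1.66% in LT than in ST, and 0.32% and 0.683% in ST than in MPP. The members had median differences of -0.03, -0.07 and 0.03 in these comparisons, against -0.03, -0.02 and 0.01 for all genes. Hmgcs1 in young mice 1 to 4 stood at 59.2, 31.3, 46.2 and 40.0 CPM in LT, 116, 33.7, 60.9 and 27.9 CPM in ST and 57.5, 51.0, 79.9 and 35.1 CPM in MPP, which overlapped fully. Between 2 old and 4 young mice no member passed in any cell type (18 libraries and 12983 genes, 0% of genes called higher in each), although DESeq2 called Hsd17b7 lower in old ST, as it did 0.509% of genes. Hsd17b7 and Acaca were lower in old ST at an unadjusted p under 0.05, as were 2.51% of all genes, with 1.73% higher. The shares were 2.59% higher and 0.801% lower in old LT, and 0.285% and 0.146% in old MPP, with no member among them. The median differences of old from young were -0.02 in LT, -0.26 in ST and -0.15 in MPP over the members, and 0.01, -0.03 and -0.04 over all genes. Both old mice lay within the range of the young for Hmgcs1 in ST, at 66.4 and 108 CPM, and for Fdps in MPP old mouse 2 was below it, at 62.6 CPM against 100.3, 87.8, 83.1 and 122 CPM.

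**Figure D5:**
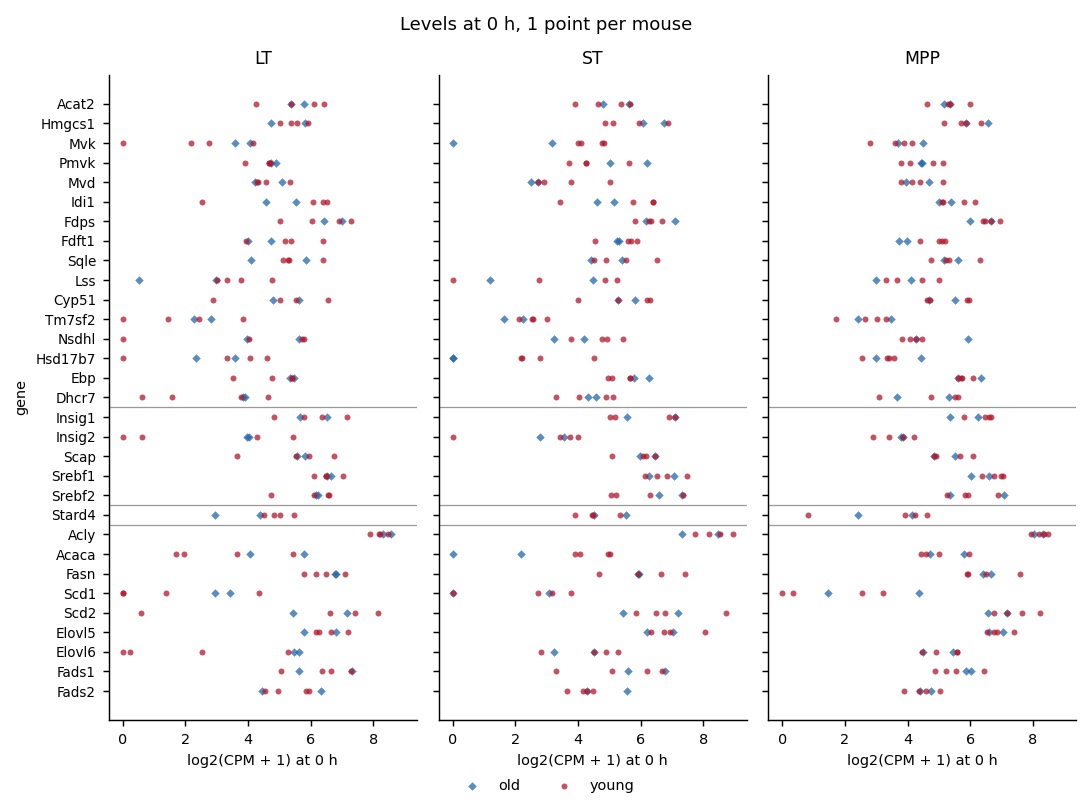
Levels at 0 h of the 31 genes (rows) as log2(CPM + 1) in LT, ST and MPP (panels), with 1 point per mouse, circles for 4 young and diamonds for 2 old mice. For Hsd17b7 in ST both old mice stand at 0 CPM and the lowest young mouse at 3.55 CPM, whereas for Hmgcs1 in ST both old mice lie within the range of the young. Levels of different genes are not comparable since gene length was not accounted for.

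Of other genes of the pathway, from a list of 16 SREBP targets and processing genes outside the 31, 14 did not pass at 4 h in any cell type. Sc4mol (Msmo1), a sterol C4-methyl oxidase, rose at 4 h in LT, ST and MPP. Its lowest adjusted p was below that of any of the 31. Sc4mol stood at 52.9, 35.3 and 37.6 CPM in MPP of young mice 1, 2 and 3 at 0 h and 267, 322 and 406 CPM at 4 h, a log2 rise of 3.13 ± 0.47 (edgeR adjusted p = 3.5e-05). Its rises in LT and ST were 2.34 ± 0.46 and 2.20 ± 0.45 (adjusted p = 0.004 and 0.0072), and in MPP it remained called at 8 and 12 h (0.007 and 0.0024). Without ligand, Sc4mol was called in no cell type. Of 13 genes of cholesterol efflux, storage and the LXR receptors, none passed at 4 h in any cell type, and Apoe, a lipoprotein component, fell in ST at 12 h (-5.75 ± 1.39 on the log2 scale, adjusted p = 0.037). Apoe stood at 747, 403 and 199 CPM in ST of young mice 1, 2 and 3 at 0 h and 0, 20.9 and 1.01 CPM at 12 h, and without ligand at 445 and 385 CPM at 0 h and 62.5 and 90.1 CPM at 8 h. Of 13 measured genes of fatty acid oxidation, none passed at 2, 4, 8 or 12 h of stimulation, and 5, 5 and 6 had differences above 0 at 4 h in LT, ST and MPP.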

How the data were processed

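Bulk SMART-seq2 libraries of LT, ST and MPP from 6 mice were measured, and the values are expected counts for each gene, deposited by the authors and made with RSEM on mouse build mm9, per the submitters' processing notes, with no version given. Of the values, 89.5% are whole numbers, and counts were rounded. Of 127 deposited libraries, 6 with 7 to 41 counts were left out, and the remaining 121 were summed over technical repeats to 108. The 0 h libraries, labelled in part as stimulated, were read as 1 baseline. Members and gene lists were chosen with earlier results of these data known. All members are accounted for, with values in every mouse for those that passed and for Hmgcs1, Idi1, Sqle, Insig1, Srebf2, Scd1 and Fasn. Genes outside the 31 are named where they passed and stand in a list, or as marker checks. Other members were named after their values were seen. Counts were tested with edgeR 4.0.16 in R 4.3.3 (TMM, filterByExpr, quasi-likelihood, Benjamini-Hochberg over all genes tested, threshold 0.05), and scripts were tested on simulated data. There, for MPP at 4 h against 0 h, 0%, 24.6% and 48.5% of planted log2 changes of 1, 2 and 3 were called. A member that did not pass may thus still have changed. DESeq2 1.42.0, DESeq2's size factors, no filter, fits of only the libraries compared, a single repeat instead of sums, the mouse as a replicate block and leaving out each mouse were alternatives. The 4 h contrasts with and without ligand, LT and ST against MPP at 4 h, and the minimum of 8000 detected genes were added after seeing the data. The titles give the same mouse number across cell types and times, so libraries are paired by mouse. The main fits did not use this pairing, which entered only in the alternative with the mouse as a replicate block. Residuals correlated within mice (mean r = 0.207, 0.0776 and 0.432 for young mice 1, 2 and 3) more than between mice (-0.133, -0.0546 and -0.223). CPM values are counts per 1000000 of the library total. Depth ran from 990801 to 11764600 counts per library, and without molecular identifiers these are not independent molecules. Promoters came from RefSeq, and mm9 coordinates were not used. The results of 1 listed gene outside the 31 are not reported here.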

Additional observations from a re-analysis of the deposited data

Results flagged for a closer look

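In 24 groups of 4 young mice at 0 h, 1 mouse was looked for that stood far from the other 3, and chance alone picks out about 1 in 20 such groups. Sqle in LT stood at 83.4 CPM in young mouse 3, against 33.7, 37.8 and 38.4 CPM in the others (gap over range 0.906). Scd1 in LT stood at 19.2 CPM in young mouse 2, against 0, 0 and 1.58 CPM (0.918).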

How the results depend on the processing

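The number of members called was the value compared across settings, and 401 of its alternative values stayed within 1.5 times and 56 did not. Most comparisons had 0 members called as reported, so most of the values that stayed were 0 in both. With the mouse as a replicate block the pairing gave 1 member in LT at 4 h (0 without it), 2 in ST at 8 h and 2 at 12 h (1 and 1), and 3, 1 and 1 in MPP at 4, 8 and 12 h (1, 0 and 0). DESeq2 gave 2 in LT at 4 h, 4, 2 and 2 in ST at 4, 8 and 12 h, and 4, 2 and 2 in MPP. Without the libraries under 8000 detected genes the counts were 1 in LT at 4 h, 4 and 2 in ST at 4 and 12 h, and 4, 2 and 3 in MPP at 4, 8 and 12 h. Fitting only the libraries compared gave 0 in ST at 4, 8 and 12 h, while MPP had 5, 2 and 5. No filter gave 0 in ST at 4 and 12 h and 0 in MPP at 4 h, and a single repeat instead of sums gave 2 in ST at 8 h and 2 in MPP at 4 h. Leaving out 1 mouse gave 0 to 1 in LT at 4 h, 0 to 2 in ST at 4 h, 0 to 1 in ST at 8 h, 0 to 1 in ST at 12 h and 0 to 3 in MPP at 4 h. The highest counts at 4 h were without young mouse 1, and counts of 0 arose without young mouse 2 in all 4 of these ST and MPP results, without young mouse 3 in all but ST at 8 h, and without young mouse 1 in ST at 8 h.

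Without ligand, DESeq2 gave 1 in LT at 4 h and 8 h, 1 in ST at 2, 4 and 8 h and 1 in MPP at 8 h, where edgeR gave 0. For the change with against without ligand it gave 1 in LT at 4 h, 2 and 1 in ST at 4 and 8 h, and 2 and 1 in MPP at 4 and 8 h. Fitting only the libraries compared gave 1 and 2 in MPP at 4 and 8 h, and leaving out 1 mouse gave 0 to 1 in ST at 4 h, the 1 being without young mouse 4, which leaves old mouse 4 as the only mouse without ligand, assumed to vary like the other groups. For old against young ST, DESeq2 gave 1. The cause of these shifts was not tested.

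Of the single genes, 384 values kept their side of the threshold, 51 newly passed, 16 no longer passed and 1 changed sign: Fdps in LT at 8 h, 1.00 as reported, was -0.82 without the libraries under 8000 detected genes (edgeR adjusted p = 1.0), which leaves young mouse 3 alone at that time. The mouse block was not run for old against young, since each mouse has 1 age. Each time had 3 stimulated young mice or 2 mice without ligand. In LT of young mouse 1, 6 of the 16 sterol enzymes had counts of 0 at 4 h.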
